A study of Homo sapiens with 24 samples.

Results

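The 5′ segment of the human 12S mt-rRNA, the RNA of the small subunit of the mitochondrial ribosome, was described here across 24 libraries. It was taken by position alone, as nucleotides 1 to 480 of the 954 nucleotides of MT-RNR1 (GRCh38, chromosome M, 648 to 1127, plus strand, a non-coding rRNA gene without introns or UTRs), which are 480 of the 15416 positions in the deposited table. Positions below are counted from the first nucleotide of the 12S mt-rRNA. The libraries came from 4 lines, which were the MRM1 knock-out, the MRM2 knock-out, the MRM3 knock-out and their parent. All derive from HEK293T Flp-In T-REx, a line of embryonic kidney origin that carries a site for inserting transgenes. The MRM2 knock-out was made with zinc-finger nucleases, the MRM1 and MRM3 knock-out lines were provided by other people, and the medium of the MRM2 knock-out cells contained added uridine and extra serum, so that genotype, clone and medium cannot be told apart. Each line had 3 biological replicates, which were separate plates. Mitochondria-enriched RNA of each replicate was broken at alkaline pH, ligated to an adaptor, divided and reverse transcribed with either 2 μM or 500 μM dNTPs. Lines were read from the sample titles, since the genotype entry names another line for 18 of the 24 samples. The MRM genes are nuclear, so their loss cannot be checked directly in mitochondrial transcripts. Methylation at their known sites in the large-subunit rRNA can be, by the cleavage protection score explained below. At 500 μM each knock-out named by title had the lowest mean score of the 4 lines at its own site. G2815 had -0.204 in MRM1 knock-out and 0.543 in parental libraries, and U3039 -0.456 in MRM2 knock-out and 0.330 in parental libraries. G3040 had 0.0817 in MRM3 knock-out and 0.822 in parental libraries. U3039 was also low in MRM3 knock-out libraries (-0.106).

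MRM1, MRM2 and MRM3 are methyltransferases that add a methyl group to the 2′ oxygen of riboses in the 16S mt-rRNA of the large subunit. The 5′ segment of the 12S mt-rRNA carries a 5-methyluridine, m5U1076, a methyl group on the base that TRMT2B adds. Alkali cuts RNA through the free 2′ hydroxyl, so a 2′-O-methylated ribose resists the cut and shows few 3′ ends, which the cleavage protection score measures. Reverse transcriptase (RT) also tends to halt 1 nucleotide before such a ribose when dNTPs are scarce, which the RT-stop score measures.

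The stretches on which the results turn are given as RNA, 5′ to 3′, from chromosome M of the GRCh38 reference, whose base matched the table at all 954 positions of the 12S mt-rRNA. Capitals mark the positions for which each stretch is shown. They are the first nucleotides with positions 1, 2, 4 and 16 (chrM:648-677), the pair of highest protection at 103 and 104 (chrM:737-764), the lowest score at 354 (chrM:987-1016), m5U1076 at 429 (chrM:1062-1091), the rises at 224, 231 and 234 (chrM:862-891) and the falls at 285 and 290 (chrM:918-947) in low dNTPs, and the positions called in the MRM2 knock-out line at 316 (chrM:953-973), 370 (chrM:1007-1027) and 449 (chrM:1086-1106).
12S terminus: AAuAgguuugguccuAgccuuucuauuagc
Highest protection: cacgaucaaaaggAAcaagcaucaagca
Lowest score: aguuguaaaaaacuCcaguugacacaaaau
m5U1076: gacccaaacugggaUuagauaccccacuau
dNTP rises: acuaaccccAggguugGucAauuucgugcc
dNTP falls: aagucaauagaagcCggcgUaaagaguguu
MRM2 316: ucacccccucCccaauaaagc
MRM2 370: gacacaaaauAgacuacgaaa
MRM2 449: cacuaugcuuAgcccuaaacc

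Library totals were 483960 to 4048537 reads in the 2 μM pools and 162673 to 807322 in the 500 μM pools. The 5′ segment held 38319 to 644103 of them at 2 μM and 29005 to 163224 at 500 μM, and the lowest coverage of any of its positions was 119 and 1429 reads. Over 24 pairs of replicates of a group the counts of 5′ ends in the 5′ segment differed by more than sampling noise, with a chi-square per degree of freedom of 1.88 to 26.9, so no library was counted as a copy of another. Reads were amplified and carry no molecular identifiers, so intervals cover counting error only. The 95% Clopper-Pearson intervals of the shares of 12S ends were no wider than ±0.446 percentage points.

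The 5′ segment took a larger share of the 12S mt-rRNA when dNTPs were scarce. Its share of the 12S coverage was 63.0% ± 1.54 at 2 μM and 50.1% ± 1.69 at 500 μM (SD, n = 12 each), and it was higher at 2 μM in all 12 pairs of libraries from the same ligated RNA. The share of the 12S 3′ ends was 56.0% ± 1.53 at 2 μM and 44.001% ± 1.84 at 500 μM, and the share of the 12S 5′ ends was 62.7% ± 1.58 at 2 μM and 57.4% ± 1.63 at 500 μM. Each of these differences, of 12.8, 12.02 and 5.38 percentage points, had p = 0.000488 in an exact two-sided permutation test with signs flipped within the 12 pairs, the smallest p it can give (0.000586 after Benjamini-Hochberg adjustment over 6 measures). The median stop ratio of a position, which is the share of the reads over the next nucleotide that start there, was lower at 2 μM in 12 of 12 pairs (0.359% ± 0.0437 at 2 μM and 0.491% ± 0.0690 at 500 μM, exact permutation p = 0.000488).

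Set against the 3′ segment of the same molecules, the 5′ segment showed no difference in coverage per position that passed the test at 500 μM, where each position held 0.104% ± 0.00351 of the 12S coverage in the 5′ segment and 0.105% ± 0.00356 in the 3′ segment (SD, n = 12; exact permutation p = 0.704). At 2 μM the values were 0.131% ± 0.00321 in the 5′ segment and 0.0781% ± 0.00325 in the 3′ segment, higher in the 5′ segment in 12 of 12 libraries (exact permutation p = 0.000488). The order of both stretches in 3′ ends per position also turned with the dNTP level. It was 0.117% in the 5′ segment and 0.0928% in the 3′ segment at 2 μM, and 0.0917% in the 5′ segment and 0.118% in the 3′ segment at 500 μM, each in all 12 libraries.

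Along the 5′ segment the coverage at 500 μM changed gradually after the terminus, where its mean was 3132 reads at position 1 and 19300.5 at position 2, and it was stepped throughout at 2 μM. Relative to the mean coverage of the 12S mt-rRNA, nucleotides 1 to 80 stood at 2.52 ± 0.366 at 2 μM and 1.39 ± 0.171 at 500 μM (SD, n = 12). Nucleotides 241 to 320 stood at 1.24 ± 0.105 at 2 μM and 0.691 ± 0.0392 at 500 μM. Nucleotides 321 to 400 were the sparsest stretch at both levels, with 0.230 ± 0.0418 at 2 μM and 0.598 ± 0.0363 at 500 μM. The 4 lines followed the same steps, as the plot of coverage shows.

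**Figure D1:**
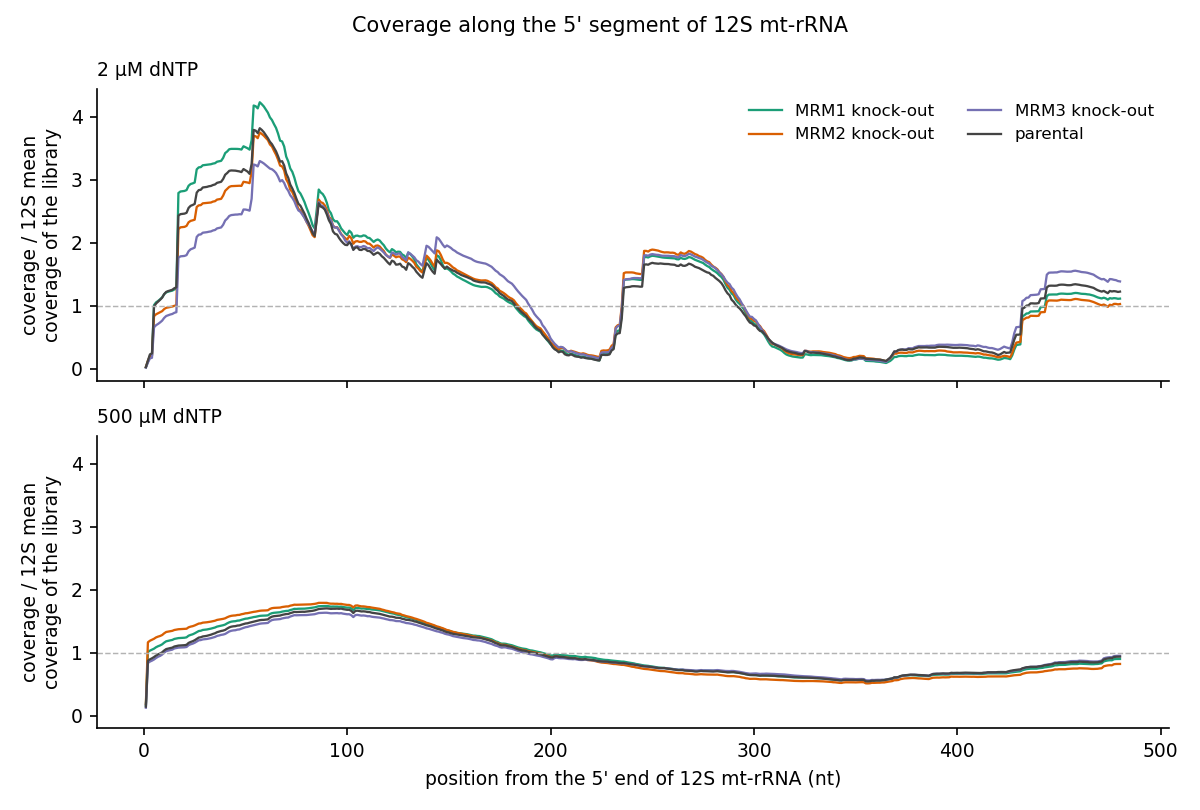
Coverage along the 5′ segment of the 12S mt-rRNA, divided by the mean 12S coverage of the library, against the position in nucleotides, for 2 μM (top) and 500 μM dNTPs (bottom), with 1 line per cell line (mean of 3 replicates). At 2 μM all 4 lines show steps and a trough over nucleotides 321 to 400, where the mean over lines was 0.230, while at 500 μM the mean there was 0.598.

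The first question for the knock-out lines was whether the amount of the 5′ segment changed. In the MRM2 knock-out line the 5′ segment held 17.5, 16.7 and 17.8% of the library's reads at 500 μM, against 20.2, 20.5 and 21.5% in the parental line. It held 25.9, 27.7 and 26.0% in the MRM3 knock-out line and 19.2, 18.8 and 20.7% in the MRM1 knock-out line. The MRM2 values lay below and the MRM3 values above all parental values, and the MRM1 values overlapped the parental range. With TMM scaling over 38 features (the 36 other transcripts and the 12S mt-rRNA as its 5′ and 3′ segments), edgeR's quasi-likelihood test gave a log2 fold change of -1.03 for the 5′ segment in the MRM2 knock-out line (adjusted p = 3.39e-05), among 6 features called, or 15.8% of those tested. The 3′ segment had -1.07 (adjusted p = 3.39e-05). The size depended on the scaling, since with total reads in place of TMM the log2 fold change was -0.26 (adjusted p = 0.00167) and the median over all features stood at 0.73 in place of -0.03. In the MRM3 knock-out line the log2 fold change was -0.24 (adjusted p = 0.218, 26.3% of features called), but with total reads it was 0.35 (adjusted p = 7.91e-05), with DESeq2 it was 0.38 (adjusted p = 0.233), and the left-out replicates moved it too: without the third MRM3 knock-out replicate it was -0.42 (adjusted p = 0.0124), and without parental replicate 1, 2 or 3 it was 0.12, 0.09 or 0.18, so that no direction held. In the MRM1 knock-out line it was -0.26 (adjusted p = 0.513, 0.0% of features called).

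The distribution of reads within the 12S mt-rRNA was compared between lines by 6 summaries at each dNTP level. At 500 μM the share of the 12S coverage in the 5′ segment averaged 51.0% ± 1.16 in MRM1 knock-out, 50.5% ± 2.31 in MRM2 knock-out and 49.1% ± 1.37 in MRM3 knock-out libraries, against 49.9% ± 2.01 in parental libraries (SD, n = 3 each). All 3 knock-out ranges overlapped the parental one. At 2 μM the MRM1 knock-out libraries held 65.2, 63.8 and 64.7% of the 12S coverage in the 5′ segment and the parental libraries 62.1, 62.9 and 61.9%, without overlap, a difference of 2.27 percentage points. Of the 36 comparisons of knock-out with parental libraries 7 had no overlap. An exact permutation test of 3 against 3 libraries cannot go below p = 0.1, and after Benjamini-Hochberg adjustment over the 36 the smallest p was 0.514, so none passed.

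The 5′ ends marked the start of the molecule at 500 μM. Position 2, an A, held 21.3% ± 5.55 of all 5′ ends of the 5′ segment (SD, n = 12), and position 1 held 4.10% ± 1.13. Position 2 had 27.0, 19.8 and 19.3% in MRM1 knock-out, 21.7, 26.9 and 31.6% in MRM2 knock-out and 21.3, 20.5 and 13.4% in MRM3 knock-out libraries, against 15.04, 14.4 and 24.8% in parental libraries. Each knock-out range overlapped the parental range, while the MRM2 and MRM3 knock-out ranges did not overlap each other. The next largest shares were far smaller, with 0.948% ± 0.0966 at 472, 0.812% ± 0.0583 at 104 and 0.736% ± 0.0819 at 10.

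At 2 μM few reads reached the terminus. Position 2 held 0.847% ± 0.189 and position 1 held 0.226% ± 0.0531 of the 5′ ends (SD, n = 12), and the largest shares, which the naming rule did not cover and which were chosen after their values were seen, lay just inside. Position 17 held 10.7% ± 2.42 at 2 μM and 0.180% ± 0.0198 at 500 μM. Position 5 held 5.99% ± 1.24 at 2 μM and 0.451% ± 0.0424 at 500 μM. These are stops at A16 and A4. Further sites were 54 with 5.26% at 2 μM and 0.236% at 500 μM, 236 with 4.57% at 2 μM and 0.219% at 500 μM, and 432 with 3.68% at 2 μM and 0.571% at 500 μM, so that at each of these sites the lowest share at 2 μM lay above the highest share at 500 μM.

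**Figure D2:**
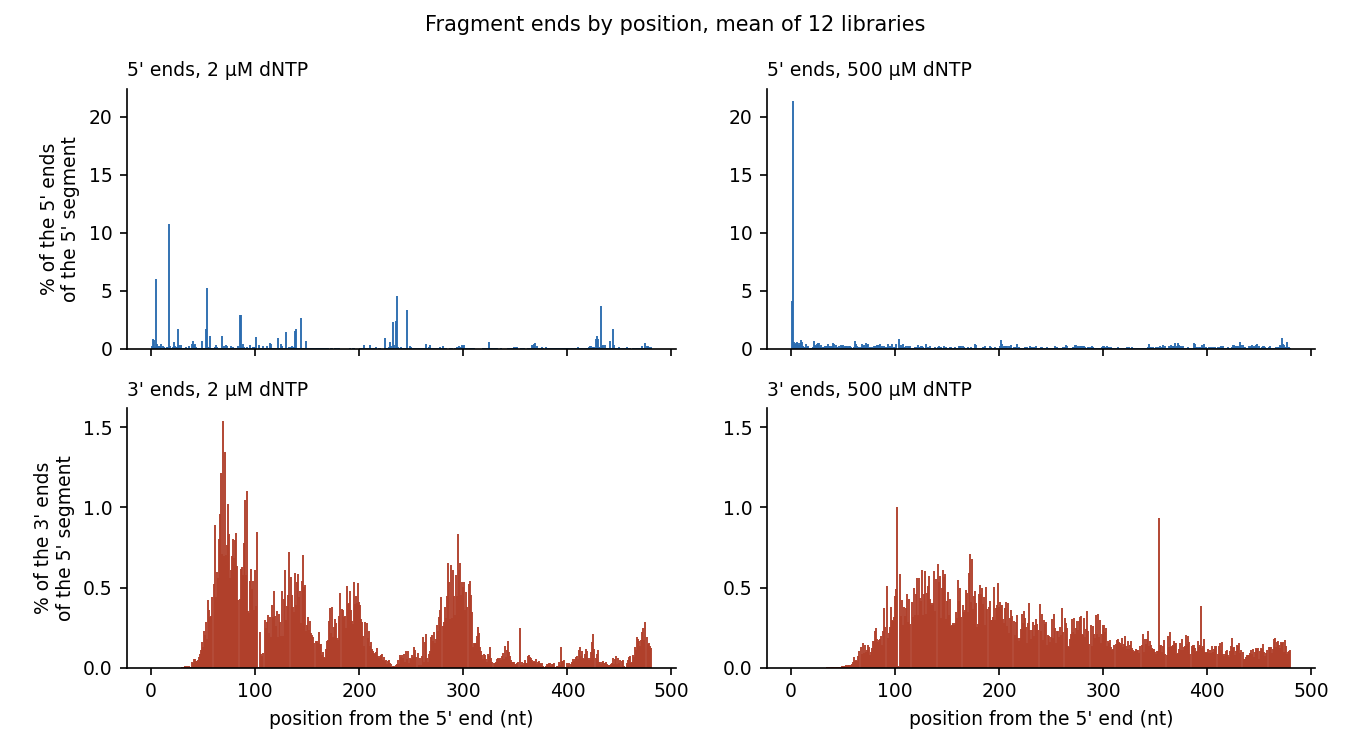
Share of the 5′ ends (top) and 3′ ends (bottom) of the 5′ segment at each position, in percent, at 2 μM (left) and 500 μM dNTPs (right), as the mean of 12 libraries. At 500 μM position 2 alone holds 21.3% of the 5′ ends, while at 2 μM the largest share is 10.7% at position 17.

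The 3′ ends, which are left by alkaline cleavage, were spread more evenly. At 500 μM nucleotides 1 to 80 held 2.35% of the 3′ ends of the 5′ segment and nucleotides 81 to 160 held 30.5%. The 5 largest single shares were 0.999% ± 0.103 at 102, 0.936% ± 0.220 at 354, 0.707% ± 0.0936 at A172, 0.675% ± 0.0519 at U174 and 0.648% ± 0.0922 at U141 (SD, n = 12).

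The 3′ ends were also grouped by the bases at and after the end. Over the 414 positions scored in all 12 libraries at 500 μM, the 3′ ends were divided by the mean of the 12 flanking positions and averaged by the base and the base after it. The value was 1.48 ± 0.0927 for C followed by G, against 1.00 ± 0.00488 for all other positions, and 1.40 ± 0.0887 for U followed by G, against 1.00 ± 0.00497 (SD, n = 12). The lowest were G followed by C with 0.693 ± 0.0435, against 1.03 ± 0.00919, and A followed by C with 0.748 ± 0.0303, against 1.04 ± 0.00962. Grouped instead by the base before and the base at the end, the highest value was 1.52 ± 0.170 for U followed by C, against 0.993 for all other positions. This group had only 17 positions. C354, which alone held 0.936% of the 3′ ends, is among them, and the value without it was not computed. The same positions recur in all 12 libraries, so these values describe those positions only.

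Before truncation at 0, which the deposited scores carry, most of the 5′ segment showed no protection at 500 μM. Of the 414 positions, 232 had a score above 0 in none of the 12 libraries, 171 in some and 11 in all, and the median of the mean scores was -0.146. Positions 1 to 65 and 441 lacked a score in at least 1 library. The first 6 lack the 6 flanking positions on the 5′ side that the score needs, and too few 3′ ends fell around the others. The share of positions with a score above 0 was 18.7% ± 1.23 in the 5′ segment and 19.01% ± 1.39 in the 3′ segment (SD, n = 12), a difference that did not pass (exact permutation p = 0.591).

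A103 and A104 (750 and 751 of the mtDNA, named by the reference base) were the exceptions in score, with the only means above 0.5. A104 averaged 0.949 ± 0.0682 and A103 0.887 ± 0.0541 (SD, n = 12), and the next highest was G450 with 0.185 ± 0.110, followed by A267 with 0.166 ± 0.106 and G227 with 0.159 ± 0.108. A104 had 0.921, 0.993 and 0.851 in MRM1 knock-out, 0.895, 0.977 and 0.796 in MRM2 knock-out and 0.986, 0.992 and 0.994 in MRM3 knock-out libraries, against 0.996, 0.995 and 0.995 in parental libraries. A103 had 0.957, 0.901 and 0.959 in MRM1 knock-out, 0.931, 0.923 and 0.884 in MRM2 knock-out and 0.783, 0.836 and 0.907 in MRM3 knock-out libraries, against 0.822, 0.870 and 0.869 in parental libraries. Both residues scored high in every line, and no difference from the parental line passed the test over all positions. A104 had 0 3′ ends in 8 of 12 libraries, where its score differed only with the ends of the flanks. For scale, the known 2′-O-methylated residue G3040 of the 16S mt-rRNA had 0.0817 ± 0.0749 in MRM3 knock-out libraries and 0.822 ± 0.0574 in parental libraries (SD, n = 3 each), G2815 had -0.204 ± 0.0652 in MRM1 knock-out and 0.543 ± 0.112 in parental libraries, and U3039 had -0.456 ± 0.0386 in MRM2 knock-out and 0.330 ± 0.0637 in parental libraries, below the level of 0.5.

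Few 3′ ends fell at both residues of this pair and few 5′ ends at G102 and A103, while G102 had many 3′ ends and A104 many 5′ ends. A103 had a median of 6.5 3′ ends (1 to 21 over 12 libraries) and A104 a median of 0 (0 to 5), while G102 beside them had 618.5 (201 to 1333), which was 2.65 ± 0.188 times the mean of the flanks. The mean over 102, 103 and 104 was 0.896 ± 0.0613 of the flanks. The 5′ ends numbered at most 1 at G102 and 2 at A103, but 240 to 1435 at A104. The RT-stop score gave no rise there, with a centred log2 value of 0.03 ± 0.15 at A103 and 0.31 ± 0.15 at A104 (SE). The table holds no read sequences, so the bases these cells carry here and how the aligner placed ends at them were not tested. Whether the high scores reflect protected riboses was therefore not tested either.

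The lowest scores, where 3′ ends exceeded their neighbours, were C354 with -0.811 ± 0.0766, G102 with -0.721 ± 0.0368 and A394 with -0.601 ± 0.0945 (SD, n = 12). C354 ranged from -0.905 to -0.618 over the 12 libraries, and each knock-out line overlapped the parental range of -0.855 to -0.734.

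**Figure D3:**
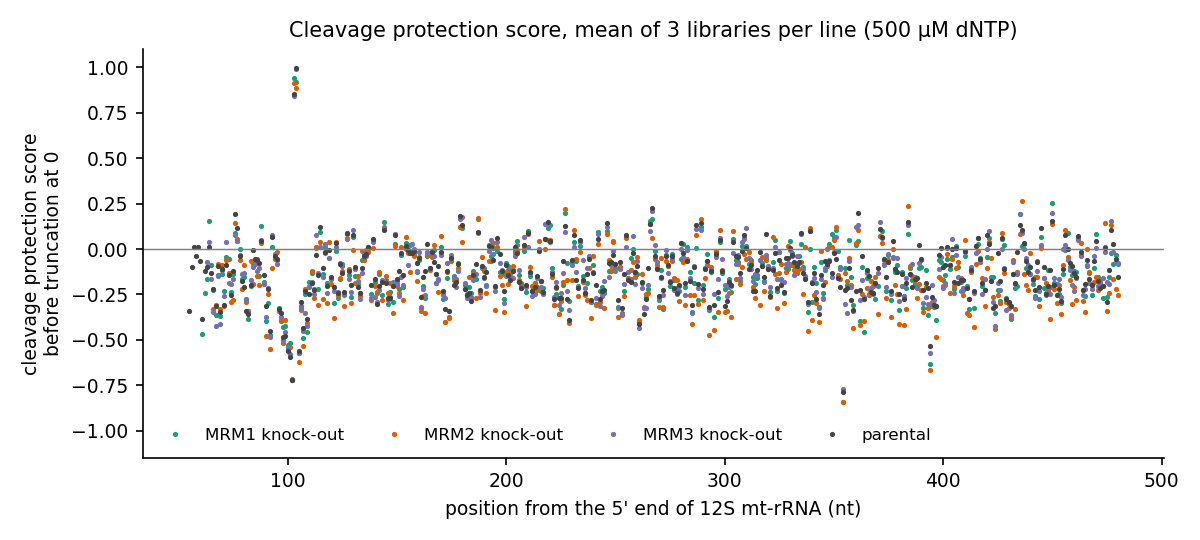
Cleavage protection score before truncation at 0 by position in nucleotides at 500 μM dNTPs, with 1 point per line (mean of 3 libraries). Only positions 103 and 104 exceed 0.5, in all 4 lines, and position 354 is the lowest with a mean of -0.811.

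The uridine at m5U1076, position 429, was not protected. Its score before truncation was -0.281, -0.298 and -0.234 in MRM1 knock-out, -0.206, -0.363 and -0.301 in MRM2 knock-out and -0.313, -0.314 and -0.378 in MRM3 knock-out libraries, against -0.253, -0.297 and -0.271 in parental libraries. All values lay below 0, and the mean of -0.292 ± 0.0489 was the 50th lowest of the 414. Its stop ratio was 3.09% ± 0.313 at 2 μM and 1.19% ± 0.170 at 500 μM (SD, n = 12), and the log2 of their ratio was 1.17 to 1.67 over the 12 replicates. Differences in the log2 RT-stop score were 0.18 ± 0.32 in the MRM1, 0.19 ± 0.32 in the MRM2 and -0.05 ± 0.32 in the MRM3 knock-out line against the parental line (SE, limma adjusted p of 0.819 to 0.994). For scale, the log2 RT-stop score of G2815 averaged -0.41 ± 0.53 in the MRM1 knock-out line and 5.41 ± 0.36 in the parental line (SD, n = 3 each).

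The effect of each knock-out was then tested at every position. For the deposited, truncated score 114 of the 480 positions had a score above 0 in at least 3 libraries. Limma called 0 of them in the MRM1, MRM2 or MRM3 knock-out line. Its unadjusted p was under 0.05 at 5, 5 and 3 of them, or 4.39, 4.39 and 2.63%. The same shares over the series were 3.12, 7.49 and 3.90%. Over all 641 positions of the series 0.156, 0.156 and 0.312% were called. edgeR on the 3′ ends called 0, 1 and 0 of the 114, beside 0.468, 0.936 and 0.312% of the 641. The smallest unadjusted p were those of A103, A361 and A389 in the MRM1, A104, A389 and C436 in the MRM2, and C310, A258 and G115 in the MRM3 knock-out line, with differences of -0.154 to 0.160 and adjusted p of at least 0.656.

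Before truncation, 3 of 414 positions were called in the MRM2 knock-out line, all lower, or 0.725%, beside 0.683% of the 2196 positions of the series (0.638% lower). C316 had scores of -0.336, -0.256 and -0.325 in MRM2 knock-out libraries, against 0.000348, 0.00280 and -0.0495 in parental libraries, a difference of -0.290 ± 0.0503 (SE, adjusted p = 0.0128). A449 had -0.313, -0.372 and -0.471 in MRM2 knock-out libraries, against -0.108, -0.0667 and -0.174 in parental libraries (-0.269 ± 0.0572, adjusted p = 0.0483). A370 had -0.327, -0.433 and -0.307 in MRM2 knock-out libraries, against -0.177, -0.0256 and -0.108 in parental libraries (-0.252 ± 0.0541, adjusted p = 0.0483). At these 3 positions the MRM2 knock-out values did not overlap the parental ones, and none was protected in the parental line, where the highest score was 0.00280. The MRM3 knock-out libraries also lay below all parental values at A449, with -0.284, -0.269 and -0.195. At C316 and A370 they overlapped the parental range, as the MRM1 knock-out libraries did at all 3 positions. In the MRM2 line the whole distribution lay lower as well, since the median difference of the 414 positions was -0.0331, beside -0.0348 over all 2196. The MRM2 knock-out libraries were also the shallowest, with a mean coverage of the 5′ segment of 8178 to 9153 reads, against 28812 to 38221 in parental libraries. With all libraries thinned to 162673 reads 0 positions were called, and the differences at C316, A449 and A370 were -0.224, -0.233 and -0.209 (limma adjusted p of 0.149 to 0.226). edgeR on the 3′ ends called 3 of the 414 in the MRM2 line, C316 and A449 among them, beside 1.5% of the 2196. Leaving out 1 replicate gave 0 to 8 calls, with 0 without the third MRM2 knock-out, the first parental or the second parental replicate and 8 without the first MRM2 knock-out replicate, and the replicate number as a block gave 1. In the MRM1 and MRM3 knock-out lines 0 positions were called by limma, beside 0.0455 and 0.0911% over the series, and 0 by edgeR, beside 0.0455 and 0.182%. The unadjusted limma p was under 0.05 at 14, 60 and 8 of the 414 positions in the MRM1, MRM2 and MRM3 lines. These were 3.38, 14.5 and 1.93%, beside 2.87, 15.6 and 4.92% over the series. In the MRM1 line the smallest p were at U228 (0.197 ± 0.0531), C364 (-0.182 ± 0.0536) and U434 (-0.189 ± 0.0588), and in the MRM3 line at G360, U300 and U424, all with adjusted p of at least 0.757.

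**Figure D4:**
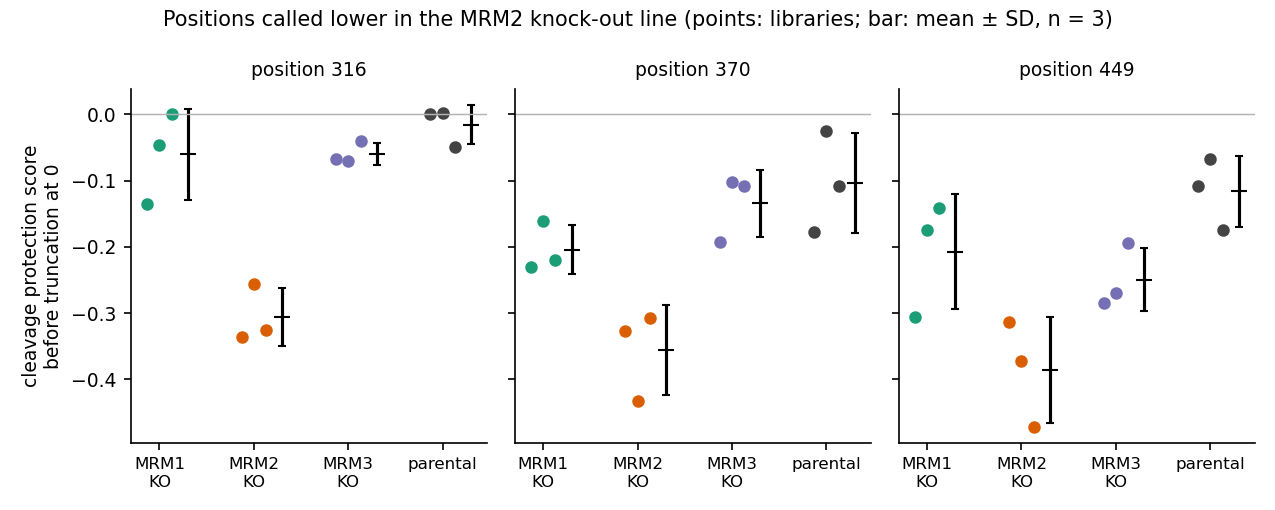
Cleavage protection score before truncation at the 3 positions called lower in the MRM2 knock-out line, for each of the 12 libraries at 500 μM dNTPs (points) with the mean and SD of each line (n = 3). At position 316 the MRM2 knock-out libraries sit between -0.336 and -0.256 and the parental ones between -0.0495 and 0.00280.

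For the RT-stop score all 480 positions passed the minimum of 50 reads, and limma called 0 of them in each knock-out line, with 8, 41 and 3 at an unadjusted p under 0.05, in the order MRM1, MRM2 and MRM3. Over the 11971 positions of the series 0.00835, 0.0 and 0.00835% were called. edgeR on the stop counts called 0, 6 and 0 of the 480, beside 0.0501, 0.66 and 0.0835% of the 11971. C89 was one of the 6 (log2 fold change of 1.64, adjusted p = 0.046). The smallest p in the MRM2 line belonged to U191, C89 and C182, with log2 differences of 2.77 ± 0.59, 1.72 ± 0.38 and 1.98 ± 0.45 (SE, limma adjusted p of 0.125, 0.125 and 0.137). The log2 RT-stop score of U191 was -3.08, -3.99 and -3.29 in MRM2 knock-out replicates, against -5.48, -7.53 and -5.68 in parental replicates, without overlap. Its stop ratio at 2 μM was only 0.00382 to 0.0544%, near the floor set by the 1 added to each count, which depends on depth. Mean coverage of the 5′ segment at 2 μM was 4292 to 12264 reads in MRM2 knock-out and 35868 to 72962 in parental libraries. In the MRM1 line the smallest p belonged to U191, C373 and U408 (log2 differences of 1.84, -1.39 and 1.22) and in the MRM3 line to U408, G339 and C337 (1.16, 1.78 and 1.97), none of which passed. Stop ratios at 2 μM also came near the floor at C182 (0.00450 to 0.0382%), G339 (0.00919 to 0.172%) and C337 (0.0143 to 0.215%). The median log2 difference over the 480 positions was -0.03 in the MRM1, 0.26 in the MRM2 and 0.10 in the MRM3 knock-out line, beside 0.09, 0.29 and 0.10 over the series.

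Scarce dNTPs changed the stops at many positions. After centring on the median of each replicate and testing the mean of the 4 lines against a 2-fold threshold (limma's treat), 115 of the 480 positions had a higher and 153 a lower log2 RT-stop score, together 268 or 55.8%, beside 38.7% of the 11971 positions of the series (22.0% higher and 16.7% lower). Calls were also frequent in the 3′ segment, whose counts are given by base below. The median centred value of the 5′ segment was -0.37, beside -0.08 over the series. Before centring, the median of the 5′ segment was -0.61 to 0.05 and that of the 3′ segment 0.04 to 0.76 over the 12 replicates, lower in the 5′ segment in each.

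Rises and falls were spread unevenly over the bases. Of the 168 A positions 88 were called higher and 20 lower, of the 130 C positions 4 higher and 67 lower, of the 79 G positions 12 higher and 32 lower, and of the 103 U positions 11 higher and 34 lower. A thus made up 76.5% of the rises, beside 35% of the sequence. The median centred log2 value was 1.45 at A and -1.49 at C. The median over A exceeded that over the other bases by 2.55 ± 0.163, and that over C fell short by -1.80 ± 0.145 (SD, n = 12 replicates), in 12 of 12 replicates each, which share the same positions. G and U lay lower than the other bases by smaller amounts, -0.47 ± 0.150 and -0.54 ± 0.132. The grouping by base was chosen after seeing the data and is given as a description. In the 3′ segment the difference at A was 2.76 ± 0.233. There 96 of 147 A positions were called higher and 8 lower, and 23 of 122 C positions higher and 45 lower. Of its 102 G positions 15 were higher and 27 lower, and of its 102 U positions 30 were higher and 23 lower.

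The largest rises were at A137, G231, A16, A234 and A224, with centred log2 RT-stop scores of 7.39 ± 0.15, 6.59 ± 0.13, 6.48 ± 0.13, 6.17 ± 0.12 and 5.996 ± 0.11 (SE, limma adjusted p of at most 3.21e-13), each higher in 12 of 12 replicates. At A137 the stop ratio was 7.47 to 13.1% with a median of 9.75% at 2 μM and 0.0384 to 0.0961% with a median of 0.0595% at 500 μM. At A16 it was 40.5 to 58.1% (median 52.5%) at 2 μM and 0.426 to 0.800% (median 0.607%) at 500 μM. G231 had 42.2% ± 2.78 at 2 μM and 0.459% ± 0.109 at 500 μM, A234 29.2% ± 2.57 and 0.423% ± 0.0820, and A224 40.5% ± 4.30 and 0.653% ± 0.0997 (SD, n = 12). A224, G231 and A234 lie in 1 printed stretch. At all 5 positions the lowest value at 2 μM lay above the highest at 500 μM.

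Near the terminus A4 had a stop ratio of 75.6% ± 2.81 at 2 μM and 1.81% ± 0.588 at 500 μM (SD, n = 12), a centred log2 score of 5.49 ± 0.13 (SE). Position 2 had 41.2% ± 3.93 at 2 μM and 2.40% ± 0.527 at 500 μM. The first nucleotide, had 79.0% ± 1.23 at 2 μM and 83.9% ± 0.618 at 500 μM, and its centred value of -0.05 ± 0.14 was not called (adjusted p = 1).

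The largest falls were at C285, U290 and U184, with -5.31 ± 0.19, -5.16 ± 0.22 and -5.00 ± 0.18 (SE, limma adjusted p of at most 2.85e-10), lower in 12 of 12 replicates. The stop ratio of C285 was 0.0231% ± 0.0115 at 2 μM and 0.847% ± 0.140 at 500 μM, that of U290 0.0145% ± 0.00794 and 0.454% ± 0.0779, and that of U184 0.0188% ± 0.00855 and 0.565% ± 0.114 (SD, n = 12). The ranges at both levels did not overlap at any of these 3 positions. At 2 μM the lowest ratios were 0.00319% at U290 and 0.00509% at U184, near the floor set by the added 1. The size and rank of these falls therefore depend on coverage.

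The 5-methyluridine was among the rises, with a centred log2 score of 1.42 ± 0.13 (SE, limma adjusted p = 0.00962), higher in 12 of 12 replicates. The call was lost without replicate 1 (1.37, adjusted p = 0.0796), without replicate 2 (1.45, 0.0754), in the parental line alone (1.49, 0.106) and with a coverage minimum of 20 (1.33, 0.0506). It stood below the A residues around it, among which A428 had 4.19 and A431 3.91, and above G432 with 0.60, which was not called. It also stood above the median of -0.63 over the 103 U positions of the 5′ segment, 11 of which were called higher. By stretches of 80 nucleotides, falls outnumbered rises most between 241 and 320, with 11 rises and 36 falls, and rises outnumbered falls between 81 and 160, with 22 rises and 20 falls, and between 321 and 400, with 26 rises and 21 falls.

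**Figure D5:**
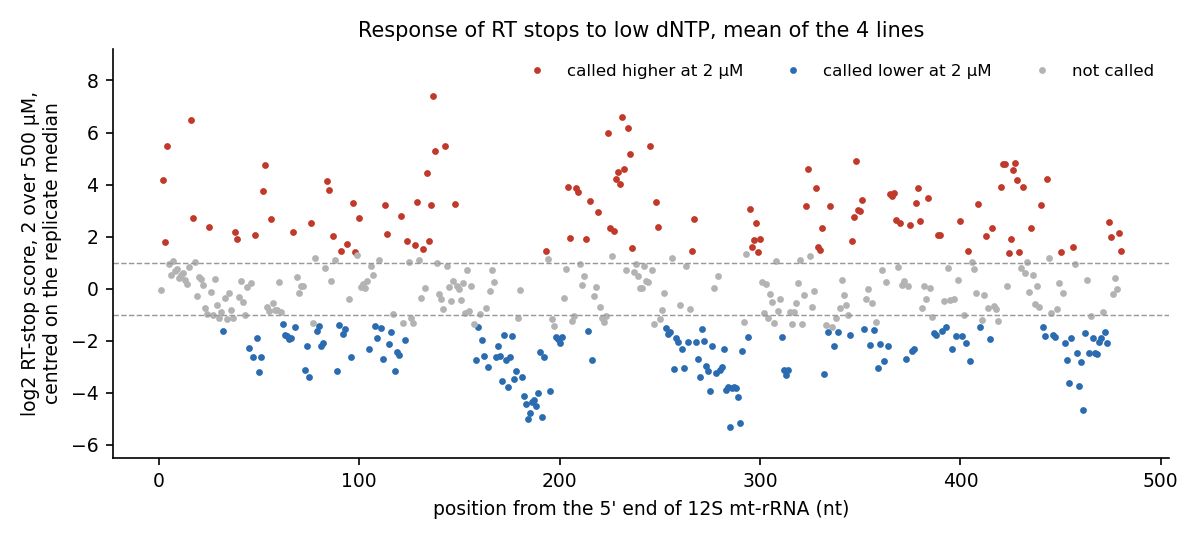
Centred log2 RT-stop score (2 μM over 500 μM dNTPs, mean of the 4 lines) by position in nucleotides, with positions called higher in red, lower in blue and not called in grey, and dashed lines at the 2-fold threshold. The 115 rises and 153 falls lie interspersed along the 5′ segment, with the highest value of 7.39 at position 137 and the lowest of -5.31 at position 285.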

How the data were processed

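The authors aligned reads to the mitochondrial chromosome of GRCh38 (STAR 2.5.3a according to the submitters' processing notes) and deposited, per transcript position, raw counts of fragment 5′ ends, 3′ ends and coverage. The deposited cleavage protection score is a fraction made by the authors from 3′ ends in the 500 μM libraries, with 6 flanking positions on each side, a minimum flank median of 15 and negative values set to 0. The deposited stop ratio is a fraction for which the authors added 1 to the stop count and to the coverage. Columns of t test and chi-square p-values of the authors' comparisons were not used. The coverage follows from the ends at all 369984 values when the read-end column is taken as 5′ ends, and at 275 the other way. Both scores were recomputed, equal to the deposited ones within 6.52e-16, and scores were also kept before truncation.

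Positions were tested with limma 3.58.1 (trend, 12 libraries or replicates, line as factor) and reads with edgeR 4.0.16 (TMM, quasi-likelihood, at least 10 reads in at least 3 libraries) in R 4.3.3 over the whole table, with a coverage minimum of 50 for RT stops and Benjamini-Hochberg adjustment at 0.05. Single values were compared with two-sided exact permutation tests. Tests were checked on simulated data. Plates of a line are the replicates, so p-values measure the spread between plates. Correlations showed no steady pairing of same-numbered replicates. Alternatives were other flanks, minimums, pseudocounts, scalings (DESeq2 1.42.0), libraries, a replicate block and each replicate left out. Named positions are m5U1076, the first nucleotide, up to 5 calls (or the 3 smallest p) per knock-out and score, the 5 highest and 3 lowest scores, the 5 largest rises and 3 largest falls in low dNTPs, and the 5 largest shares of 5′ and of 3′ ends at 500 μM. Members, lists and tests were chosen with earlier results of these data known. The 3 known sites of the 16S mt-rRNA serve as scale.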

Additional observations from a re-analysis of the deposited data

How the results depend on the processing

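The alternatives kept the direction of the reads of the 5′ segment in the MRM1 and MRM2 knock-out lines and, in the MRM2 line, the call (log2 fold change of -1.06 to -0.26). In the MRM3 line the value of -0.24 became 0.35 with total reads and 0.38 with DESeq2, and ranged from -0.42 to 0.18 with 1 replicate left out. In place of the 3 positions called in the MRM2 knock-out line before truncation, 0 were called with a flank of 4 (-0.248, -0.269 and -0.249 at C316, A449 and A370), with thinning (-0.224, -0.233 and -0.209) or with a minimum median of 50 reads (none of the 3 scored), 1 with the 6 libraries alone, and 0 to 8 with 1 replicate left out. edgeR called 1 position of the truncated score and 6 of the RT-stop score in the MRM2 line, against 0 by limma, and the 2 μM libraries gave 2 calls before truncation in the MRM1 line. Without filter on scores above 0 most residual variances were 0, so that fit is unreliable. The dNTP response had 410 calls (173 higher and 237 lower) without fold threshold, and 98 falls in the parental line alone. At position 1 it was 0.0589 with a coverage minimum of 200, 0.0807 in the parental line alone, 0.0177 with edgeR, and -0.115 to 0.000256 with 1 replicate left out. Position 300 in the MRM3 line had -0.0835 in the 2 μM libraries. The fall of the median stop ratio was -0.0689 percentage points in the MRM2 line alone, the excess at A was 2.35 in the MRM3 line alone, and the deficit at U was -0.40 in the parental line alone. In the 2 μM libraries the 5′ segment exceeded the 3′ segment per position by 0.0239% in 3′ ends and 0.0530% in coverage, by 0.0238 in median score and by 0.317 percentage points in positions above 0, and was lower by -0.0479 percentage points in stop ratio. At 2 μM 300 positions were scored in all 12 libraries, against 414 at 500 μM. Over these unlike sets 10 dinucleotides passed an exact permutation test at 2 μM and 16 at 500 μM (14 with the base before in place of the base after). AU (-0.0290), CC (-0.00484) and UC (0.104) changed direction. The same positions recur in every library, so a pass describes those positions only. The causes were not tested.

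With the replicate number as a block the calls before truncation in the MRM2 line were 1 in place of 3, and the reads had log2 fold changes of -0.26, -1.02 and -0.25 in the MRM1, MRM2 and MRM3 lines. The block changed no other count by over 1.5 times. Same-numbered replicates of knock-out and parental lines had correlations of -0.229 to 0.271 before truncation and -0.172 to 0.0645 for the RT-stop score. For reads per transcript the correlations were -0.300 to 0.423. In each measure 3 of 9 correlated best with their own number. With 3 replicates per line these correlations cannot tell whether equal numbers mark a shared batch. At 2 μM the coverage of the sparsest position was 63 reads in the 3′ segment and 119 in the 5′ segment, which limits stop ratios near 0.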
